A study of Mus musculus with 14 samples.

Results

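Immediate early genes were followed in the blood cells of 14 mice: the AP-1 subunits Fos, Fosb, Jun and Junb, the AP-1 partner Atf3, the zinc finger factors Egr1 and Egr2, the nuclear receptors Nr4a1 and Nr4a2, and Ier2. The 10 genes were chosen by name, and they correspond to 11 of the 55681 non-control probes on the array. All 10 genes had a probe that could be tested, among 11481 named genes that did. The study set 2 kinds of early adversity beside each other after cocaine conditioning. The groups, read from the labels, were 4 labelled male SS mice, which had met a hostile social environment in the third postnatal week, 4 labelled male SI mice, which had been socially isolated at that age, 4 labelled female SS mice and 2 labelled female SI mice. All mice had received cocaine at a dose of 5 mg/kg, below threshold in place conditioning, and had gone through extinction and withdrawal. Blood was taken 24 hours later. The labels spell out SI but not SS; SS was read as the hostile environment because the protocol names only these 2 kinds of adversity, and the meaning of each SS minus SI sign rests on that reading. There was no group without adversity or without cocaine, and the labels used here give neither strain nor age at sampling.

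Immediate early genes are transcribed within minutes of a stimulus and need no new protein synthesis to start. MAP kinases act through SRF and its ELK partners at CArG boxes, and calcium and cyclic AMP act through CREB at cyclic AMP response elements (CRE). The products are mostly transcription factors that switch on a later set of genes, and in leukocytes they are known as readouts of recent stimulation through antigen, adhesion or inflammatory receptors. FOS and JUN proteins pair as AP-1, the EGR factors bind GC-rich sites and are held back by the NAB corepressors, and the NR4A receptors, orphan nuclear receptors, act in T cells and in non-classical monocytes.

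Promoter sequence was available from RefSeq (GRCm38.p6) for 8 of the 10 genes, as the 250 bases before a transcript start; Egr1 and Ier2 are not shown. The 4 windows below are those of the gene that passed the test over both slides (Nr4a1), its paralogue with the opposite sign in labelled males (Nr4a2), an AP-1 gene with a wide gap between the slides (Fos), and Egr2. Of these 8 genes, only Egr2 had a CArG box within these 250 bases. It has 5 windows, of which 1 is shown. They are written 5′ to 3′ in the direction of transcription, with matches on either strand in capitals: the CRE half-site TGACG, the EGR site GCGNGGGCG, which does not overlap a half-site here, and the CArG box. The windows lie at chr15:101266596-101266845 on the plus strand (Nr4a1), chr2:57124004-57124253 on the minus strand (Nr4a2), chr12:85473640-85473889 on the plus strand (Fos) and chr10:67537619-67537868 on the plus strand (Egr2).
Nr4a1: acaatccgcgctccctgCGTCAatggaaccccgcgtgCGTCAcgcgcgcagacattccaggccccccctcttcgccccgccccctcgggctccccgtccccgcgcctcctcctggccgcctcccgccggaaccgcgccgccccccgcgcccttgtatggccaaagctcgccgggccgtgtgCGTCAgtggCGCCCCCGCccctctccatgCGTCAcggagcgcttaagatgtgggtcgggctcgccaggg
Nr4a2: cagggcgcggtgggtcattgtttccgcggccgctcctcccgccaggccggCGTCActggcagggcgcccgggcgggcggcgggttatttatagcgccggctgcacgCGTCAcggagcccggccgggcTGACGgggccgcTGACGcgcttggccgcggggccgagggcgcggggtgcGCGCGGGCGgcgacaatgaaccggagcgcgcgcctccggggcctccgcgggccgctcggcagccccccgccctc
Fos: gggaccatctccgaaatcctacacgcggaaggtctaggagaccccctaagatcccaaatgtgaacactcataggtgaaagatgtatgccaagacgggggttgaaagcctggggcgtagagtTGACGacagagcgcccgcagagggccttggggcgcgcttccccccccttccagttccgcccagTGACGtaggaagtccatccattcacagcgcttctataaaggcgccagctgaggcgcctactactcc
Egr2: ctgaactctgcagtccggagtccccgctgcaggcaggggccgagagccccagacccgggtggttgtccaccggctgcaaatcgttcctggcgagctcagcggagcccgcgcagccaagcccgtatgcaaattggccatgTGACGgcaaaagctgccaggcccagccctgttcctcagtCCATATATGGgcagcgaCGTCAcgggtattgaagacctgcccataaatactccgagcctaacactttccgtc

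The CRE half-site was present in 7 of the 8 genes, in all but Jun, counted over all windows of a gene, against 19.8% of the 27025 genes with a window. Nr4a1 and Nr4a2 carried 4 half-sites each in their single windows, and each also carried 1 EGR site. The EGR site was found in Fosb as well, and in 5.33% of all genes. A CArG box was found in Egr2, and in 1.62% of all genes. The full palindromic CRE, TGACGTCA, and the AP-1 site, TGANTCA, were in none of the 8 genes, against 1.77% and 7.82% of all genes. These matches describe the letters in a window and say nothing of binding.

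Levels are given as log2 of the processed signal minus the 75th percentile of the array over probes above background everywhere, so that a level of 0 lies at that percentile. They compare arrays for 1 probe, not 1 gene with another. Labelled males were all on 1 slide and labelled females on the other, so slide, scan and sex label cannot be told apart. SS arrays were in columns 3 and 4 of both slides and SI arrays in columns 1 or 2, so stress group and column cannot be told apart either. The Y-linked genes Eif2s3y and Ddx3y were above background on 0 of 8 labelled male arrays and on 6 of 6 labelled female arrays. The X-linked RNA Xist was above background on 5 of 8 labelled male arrays and on 0 of 6 labelled female arrays. These counts go against the labels, and the groups are called "labelled" for that reason. One array stood apart: labelled male SI mouse 4 had a median correlation of 0.86 with its group, against 0.931 to 0.978 for the other 13 arrays, and was the dimmest of its slide. It also had the highest mean level of 5 tested erythroid markers of all arrays. That level was 6.4, against 2.4, 3.6 and 3.9 in the other labelled male SI mice. The cells are labelled as PBMC, but only red cell lysis is named, and 11 of 13 neutrophil markers and 12 of 12 platelet markers had a tested probe, beside 10 of 11 for monocytes, 8 of 10 for T cells and 7 of 8 for B cells.

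**Figure D1:**
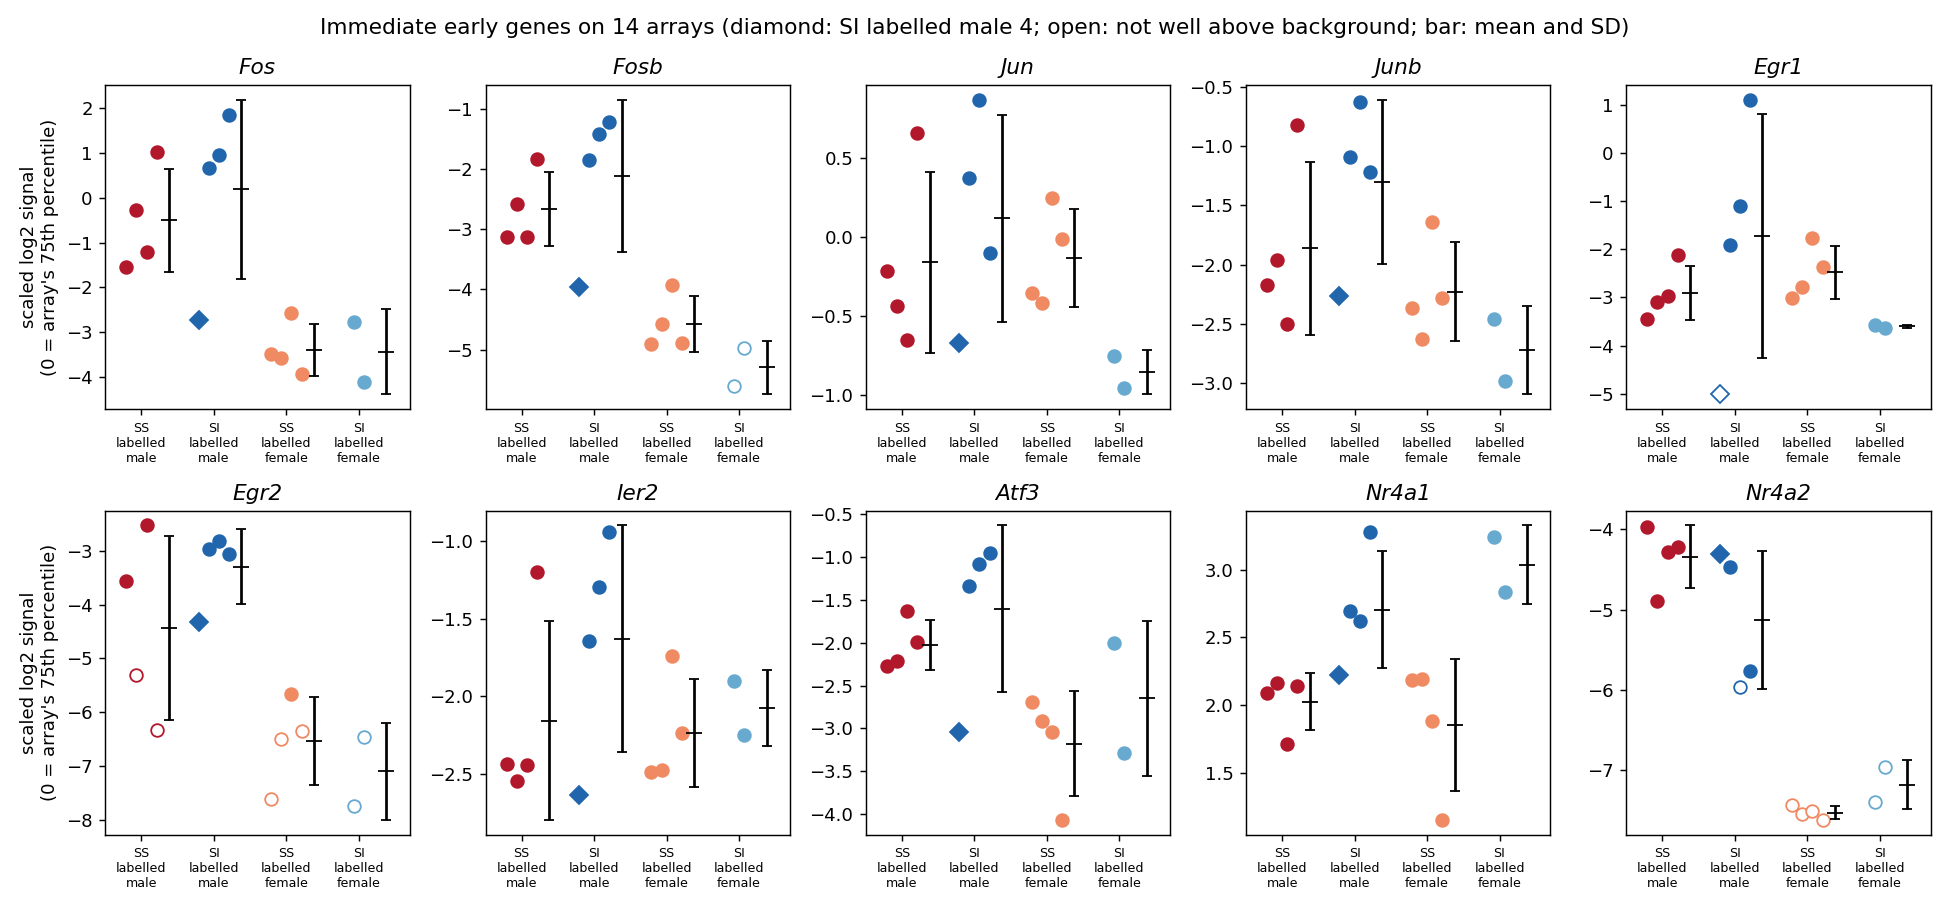
Scaled log2 signal of each of the 10 immediate early genes on the 14 arrays, by group, with SS left of SI for each sex label; the black bars give the group mean and SD. All 10 genes had lower means on the slide of the labelled females, with the widest gaps for Fos, Fosb, Egr2 and Nr4a2. Nr4a1 was lower in SS than in SI on both slides with no overlap.

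Nr4a1 was the 1 member of 10 that changed between SS and SI mice over both slides, and it fell in SS. It encodes an orphan nuclear receptor that is induced by T cell receptor signals and that non-classical monocytes need. In labelled males its level was 2.16, 1.71, 2.14 and 2.09 in SS mice, against 2.23, 2.70, 2.62 and 3.28 in SI mice. Every SS value lay below every SI value, although the highest SS and the lowest SI value were close, and the lowest SI value came from mouse 4. In labelled females the level was 2.19, 2.19, 1.88 and 1.15 in SS mice, against 3.24 and 2.83 in SI mice. The groups again did not overlap. The fitted log2 change over both slides was -0.88 ± 0.22 (SE), a ratio of 0.543 of SS over SI (limma adjusted p = 0.0215). Of all tested probes, 0.571% passed as lower in SS and 7.4% as higher, so a fall was the rarer call on these arrays. In bulk blood, fewer cells of a type that carries the transcript and less transcript per cell cannot be told apart.

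Within single slides Nr4a1 did not pass. Its log2 change was -0.68 ± 0.28 in labelled males (adjusted p = 0.17) and -1.18 ± 0.34 in labelled females (adjusted p = 0.0737), and the changes of the slides did not differ beyond their error (-0.50 ± 0.44, adjusted p = 0.626). No overlap with SS below SI was seen for 1.17% of tested probes in labelled males and for 18.2% in labelled females, where 4 arrays face only 2. The call over both slides was lost without labelled male SS mouse 2 (-0.84, adjusted p = 0.0534), labelled female SI mouse 27 (-0.76, 0.0794) or labelled female SI mouse 28 (-0.88, 0.0533). The sign was negative in all 14 such fits. In the authors' deposited table, whose normalization is not given, the change was -0.49 (adjusted p = 0.0979).

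Cell type markers moved beside Nr4a1. All 12 platelet markers rose over both slides (median log2 change 1.58), as did 7.4% of all tested probes. Their mean level ranged from 3.98 to 4.86 in labelled male SS mice against 1.82 to 3.89 in labelled male SI mice. In labelled females it ranged from 4.09 to 4.51 in SS mice against 2.24 to 2.51 in SI mice. In labelled females, 7 of 11 neutrophil markers fell, as did 197 of the 24013 tested probes. The mean level of the 11 ranged there from 0.08 to 0.58 in SS mice against 2.58 to 3.63 in SI mice. In labelled males 9 of the 11 were positive without passing (median 0.33). The mean level of the list there ranged from 1.10 to 1.34 in SS mice against 0.17 to 0.81 in SI mice. As a list, the neutrophil markers thus ran opposite ways on the slides, and 4 passed for the difference between slides, as did 0.0458% of all tested probes. None of the 10 tested monocyte markers passed over both slides, with a median change of -0.43, and none of the 8 T cell markers passed, with a median of -0.52. In labelled females all 10 monocyte markers were negative (median -0.79), without passing. None of the 7 NK, 5 erythroid and 7 B cell markers passed over both slides, with medians of -0.61, -0.81 and 0.009. All tested NK and erythroid markers were negative there. In labelled females the medians were -1.1, -1.21 and 0.68. The erythroid median over both slides was -0.21 without labelled male SI mouse 4. Without labelled male SI mouse 4, 2 monocyte markers (Spn and Cd14) and 4 neutrophil markers fell over both slides, where 6.03% of all tested probes were lower. In labelled males of that fit no neutrophil marker fell and 2 rose (Csf3r and Ngp), with 17.1% of probes lower and 22.1% higher. The part of these shifts in the change of Nr4a1 was not tested.

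The paralogue Nr4a2, a nuclear receptor of the same family, did not pass in any of the comparisons with all arrays. In labelled males its level was -4.89, -4.28, -4.22 and -3.97 in SS mice, against -4.30, -4.47, -5.96 and -5.77 in SI mice. The 2 lowest values were both SI, and the other 2 SI values lay among the SS values. The lowest, from SI mouse 6, was not well above background. The log2 change was 0.79 ± 0.36 (adjusted p = 0.201), with the sign opposite to that of Nr4a1. Labelled females gave levels of -7.43, -7.54, -7.51 and -7.62 in SS mice, against -7.40 and -6.96 in SI mice, and the probe was not well above background on any of these 6 arrays, so no fold is given there. A further Nr4a2 probe was above background on 3 of 14 arrays, all of them labelled female, and was not tested. Its mean level was -7.20 in labelled male SS mice and -7.70 in labelled male SI mice, and -5.94 in labelled female SS mice and -5.60 in labelled female SI mice, so the 2 probes of the gene run opposite ways between the slides.

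The AP-1 genes showed a wide spread among mice of the same group. Fos, whose protein pairs with JUN proteins, had levels of -0.28, -1.21, 1.01 and -1.54 in labelled male SS mice, against -2.72, 0.66, 0.96 and 1.85 in labelled male SI mice. The lowest value of this slide, from SI mouse 4, and the highest both belonged to SI mice. In labelled females Fos had -3.49, -3.58, -2.57 and -3.93 in SS mice, against -2.76 and -4.11 in SI mice, and the groups overlapped. The log2 change of Fos was -0.69 ± 0.84 in labelled males (adjusted p = 0.604) and 0.04 ± 1.03 in labelled females (adjusted p = 0.992).

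Fosb, a FOS relative with a shorter splice form known from repeated stimulation of neurons, had levels of -2.58, -3.13, -1.83 and -3.13 in labelled male SS mice, against -3.96, -1.84, -1.42 and -1.21 in labelled male SI mice. Again SI mouse 4 was lowest, while the other 3 SI mice held 3 of the 4 highest values. In labelled females its level was -4.90, -4.57, -3.92 and -4.90 in SS mice, against -5.61 and -4.98 in SI mice. Every SS value was higher there, and the probe was well above background in 4 of 4 SS mice and 0 of 2 SI mice (adjusted p = 0.669). No fold is given, since the sign of the change there turned with normexp background correction (-0.0703). The files do not say which splice form the probe reads.

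Jun, the main dimer partner of FOS, had levels of -0.44, -0.65, 0.65 and -0.22 in labelled male SS mice, against -0.67, 0.37, 0.87 and -0.10 in labelled male SI mice. These groups overlapped. In labelled females Jun had -0.35, -0.42, 0.25 and -0.01 in SS mice, against -0.76 and -0.96 in SI mice, so every SS value was higher. Fosb, Jun and Egr1 were the 3 members with every SS value above every SI value in labelled females, as were 16.5% of all tested probes. The log2 change of Jun was 0.72 ± 0.42 in labelled females (adjusted p = 0.459) and -0.28 ± 0.35 in labelled males (adjusted p = 0.612), and the difference between slides was 1.00 ± 0.55 (adjusted p = 0.462).

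Junb, a JUN relative that restrains growth in myeloid cells, ranged from -2.50 to -0.82 in labelled male SS mice and from -2.27 to -0.63 in labelled male SI mice, and from -2.63 to -1.64 in labelled female SS mice and from -2.98 to -2.45 in labelled female SI mice. Atf3, a stress-induced factor that damps inflammatory genes, ranged from -2.27 to -1.63 in labelled male SS mice and from -3.04 to -0.95 in labelled male SI mice. Neither passed on a slide: the log2 change in labelled males was -0.56 ± 0.40 for Junb and -0.42 ± 0.46 for Atf3 (adjusted p = 0.378 and 0.56), and in labelled females 0.49 ± 0.49 and -0.53 ± 0.57 (adjusted p = 0.711 and 0.73). Ier2, a nuclear protein of growth factor responses, had 3 of 4 labelled male SS values between -2.55 and -2.44 and the fourth at -1.20, with labelled male SI values from -2.64 to -0.94. Its log2 change was -0.53 ± 0.38 in labelled males (adjusted p = 0.381) and -0.16 ± 0.47 in labelled females (adjusted p = 0.918).

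Egr1, an early activator of growth and macrophage genes, spread more than any other member in labelled male SI mice. Its level was -3.10, -2.98, -2.11 and -3.44 in labelled male SS mice, against -5.01, -1.92, -1.09 and 1.11 in labelled male SI mice. SI mouse 4 was not well above background for this probe, and the other 3 SI mice were above every SS mouse. In labelled females Egr1 had -3.01, -2.78, -1.77 and -2.36 in SS mice, against -3.58 and -3.63 in SI mice, the opposite order. The log2 change was -1.18 ± 0.91 in labelled males (adjusted p = 0.41) and 1.12 ± 1.11 in labelled females (adjusted p = 0.706), and the difference between slides was 2.30 ± 1.44 (adjusted p = 0.517). Egr2, which limits T cell activation, was above background on 7 of 14 arrays, 2 of 4 SS and 4 of 4 SI in labelled males, and 1 of 4 SS and 0 of 2 SI in labelled females. Its levels in labelled males ranged from -6.33 to -2.53 in SS mice and from -4.33 to -2.82 in SI mice, with a log2 change of -1.14 ± 0.72 (adjusted p = 0.327).

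Counted over the group, 1 member fell and 0 rose over both slides, and no member passed within the labelled males, where 0% of all tested probes passed, or within the labelled females, where 4% did. With limma, 5700 probes had an unadjusted p under 0.05 in labelled males, and 204 passed there in the authors' deposited table. No member passed for the difference between slides, where 0.0458% of probes did. The log2 change was negative for 8 of 10 members over both slides, with a median of -0.32 against -0.04 for all tested probes. In labelled males 9 of 10 were negative (median -0.56, all probes 0.09) and in labelled females 4 of 10 (median 0.27, all probes -0.11). The median of all probes in labelled males was itself -0.09 when arrays were scaled by the percentile of all probes, and 0.05 in labelled females.

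**Figure D2:**
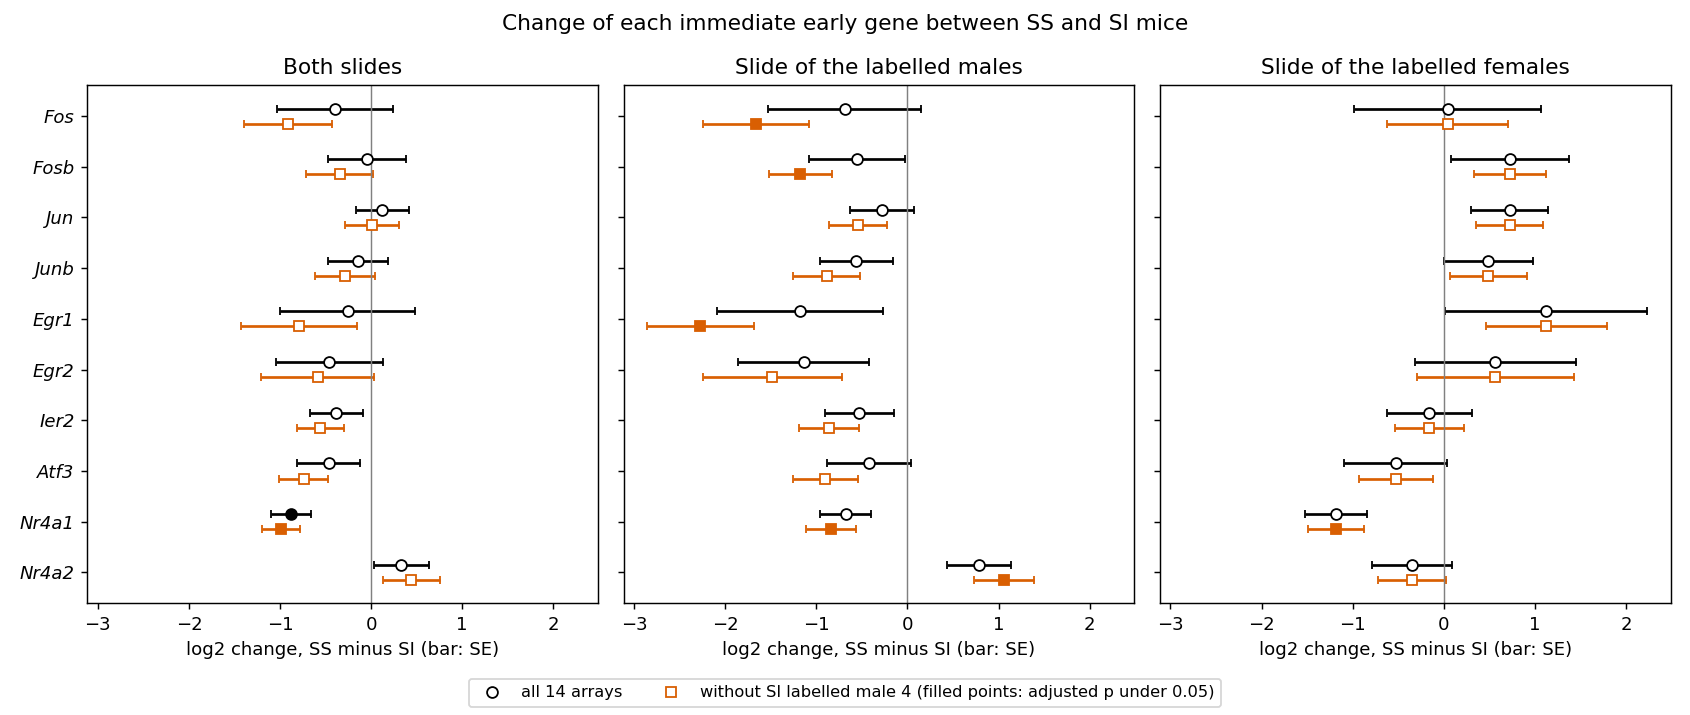
Log2 change of each immediate early gene, SS minus SI, with its SE, from the fit over both slides and for each slide, for all 14 arrays (circles) and without labelled male SI mouse 4 (squares); filled points had an adjusted p under 0.05. Nr4a1 is filled over both slides in both fits, and 5 members are filled in labelled males only without mouse 4.

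Labelled male SI mouse 4 decided how the males were called. Without it, 4 of 10 members fell and 1 rose in labelled males. The falls were Egr1 (-2.27 ± 0.59, limma adjusted p = 0.0173), Fosb (-1.17 ± 0.35, 0.0251), Nr4a1 (-0.84 ± 0.27, 0.0331) and Fos (-1.66 ± 0.58, 0.0416), and Nr4a2 rose (1.06 ± 0.33, 0.0281). The Nr4a2 probe was dim on this slide, with processed signals from 17.9 to 50.3, and SI mouse 6 was not well above background for it. The share of all tested probes was then 17.1% lower and 22.1% higher in SS, against 0% with the array. The SS values of Egr1, Atf3 and Nr4a1 all lay below the 3 remaining SI values, as did those of 16% of all tested probes. Over both slides Nr4a1 was again the only member that passed (-0.99 ± 0.21, adjusted p = 0.00643), with 6.03% of probes lower and 10% higher. In labelled females, whose arrays are the same in this fit but whose error is shared with the males, Nr4a1 fell (-1.18 ± 0.31, adjusted p = 0.0375), with 2.48% of probes lower and 5.48% higher. No member passed for the difference between slides (2.79% of probes did), and the nearest were Egr1 (3.40 ± 0.89, adjusted p = 0.0531) and Fosb (1.90 ± 0.53, 0.0578).

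On the labelled male slide, the signal of most members moved with the brightness of the array. Brightness is the median log2 ratio of unscaled signal to the mean array, and it ranged from -0.376 to 0.561 in labelled male SS mice, from -1.06 to 1.06 in labelled male SI mice, from -0.232 to 0.603 in labelled female SS mice and from -0.778 to -0.142 in labelled female SI mice. On the labelled male slide, 6 of 10 members had a correlation over 0.8 between scaled level and brightness, against 24.9% of all tested probes, and 23.3% of probes were under -0.8. Fosb had r = 0.997 and rho = 0.976 over 8 arrays (exact permutation, adjusted over 20 relations, p = 0.00198 and 0.00397), and r = 0.993 without the 2 arrays farthest from the median brightness. Fos had r = 0.983 and rho = 0.976 (adjusted exact p = 0.00198 and 0.00397), and r = 0.956 without those 2 arrays. For Egr1 r was 0.931 and rho 0.952 (adjusted exact p = 0.00198 and 0.00761), and 0.965 without the 2 arrays. Of all tested probes, 0.366% had an r at least as high as Fos and 7.95% as high as Egr1.

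Correlations of the remaining members with brightness on that slide ranged widely. Ier2 had r = 0.933 and rho = 0.881, Atf3 r = 0.883 and rho = 0.881, and Junb r = 0.873 and rho = 0.786 (adjusted exact p for r = 0.00744, 0.0215 and 0.0327, and for rho = 0.0241, 0.0241 and 0.0698), and without the 2 farthest arrays r was 0.94, 0.682 and 0.981. Jun (r = 0.769, rho = 0.786) and Nr4a1 (r = 0.709, rho = 0.595) did not pass after adjustment (exact p for r = 0.0729 and 0.0836, for rho = 0.0698 and 0.265), with 0.948 and 0.792 without the 2 arrays. Egr2 had r = 0.141 and rho = 0.143 (adjusted exact p = 0.756 and 0.885). Nr4a2 ran the other way, with r = -0.687 and rho = -0.619 (adjusted exact p = 0.106 and 0.256), and -0.618 without the 2 arrays. Among the 6 labelled female arrays Fos had r = 0.822 and rho = 1 (adjusted exact p = 0.0111 and 0.0139) and r = 0.783 without 2 arrays, while Junb had r = 0.95 and rho = 0.6 (adjusted exact p = 0.106 and 0.403), which turned to -0.633 without 2 arrays. None of the other 8 members passed on that slide. Fos, Jun and Junb had r over 0.8 there, against 2.93% of all tested probes, and 15.9% of probes were under -0.8. Only Fos, Ier2 and Atf3 kept the sign of r without the 2 farthest arrays. Jun went from 0.813 to -0.896, Egr1 from 0.797 to -0.854 and Nr4a1 from -0.339 to 0.899.

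With brightness as a further term in the fit, chosen after seeing the data, Nr4a1 still fell over both slides (-0.87 ± 0.20, limma adjusted p = 0.0105) and it fell in labelled females (-1.34 ± 0.30, 0.011). In labelled males its change was -0.53 ± 0.24 (0.185). Fos changed sign in labelled males (0.19 ± 0.21, adjusted p = 0.585), and it fell in labelled females (-0.93 ± 0.26, 0.0321). The changes of Fosb and Egr1 in labelled males shrank to -0.05 ± 0.25 and -0.32 ± 0.47 (0.913 and 0.683). That of Nr4a2 there was 0.57 ± 0.30 (0.245), smaller than without the term. Of all 24013 tested probes, 4414 passed over both slides with this term and 3235 in labelled females. The mean level of the 5 tested erythroid markers was lowest on the brightest array of each slide and highest on the dimmest. In labelled males it was 2.4 in SI mouse 7 and 6.4 in SI mouse 4. In labelled females it was 2.9 in SS mouse 22 and 5.5 in SI mouse 28. What the brightness of an array stands for was not tested.

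**Figure D3:**
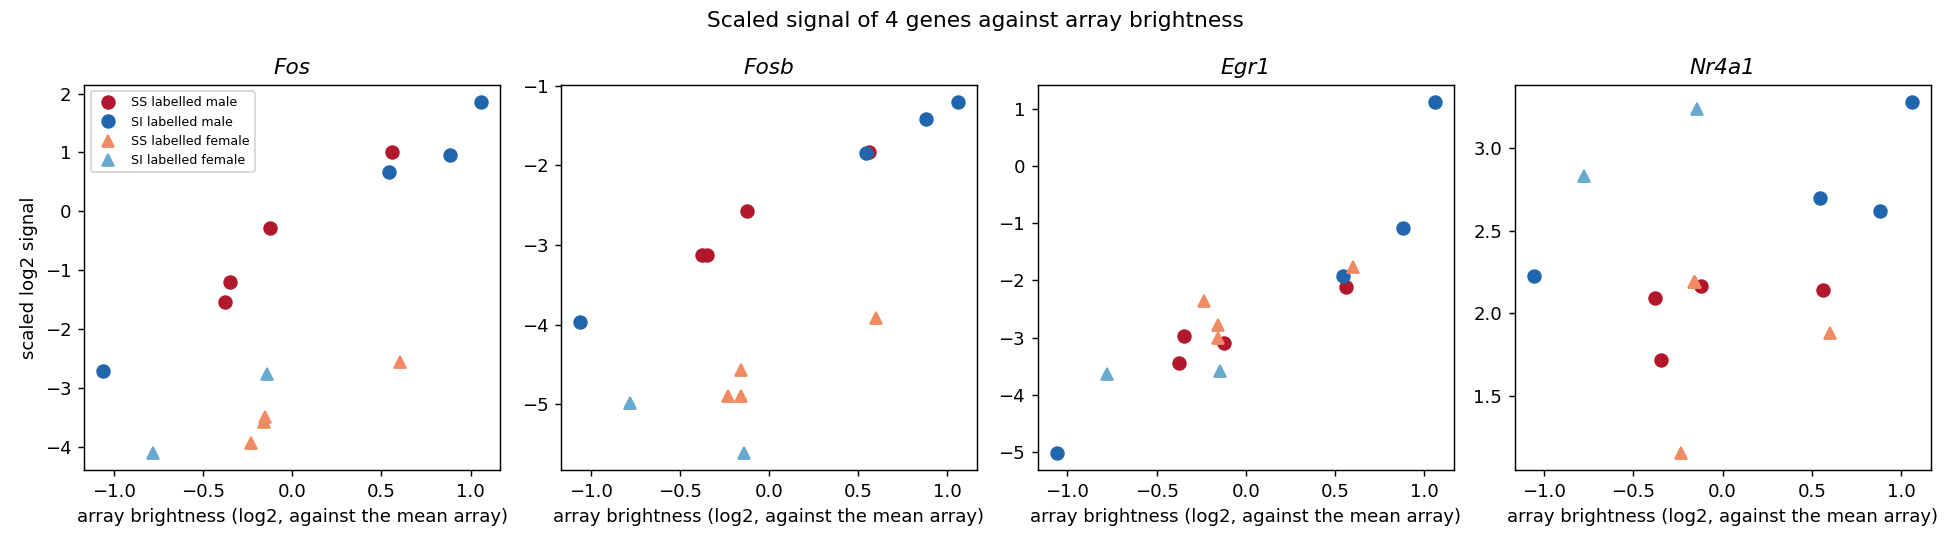
Scaled log2 signal of Fos, Fosb, Egr1 and Nr4a1 on each array against the brightness of that array (circles labelled males, triangles labelled females, red SS, blue SI). The labelled male arrays lie close to a line for Fos (r = 0.983) and Fosb (r = 0.997), and SI arrays lie above SS arrays of like brightness for Nr4a1.

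Members differed in how far the slides lay apart. The mean level of Fos was -0.16 over the 8 labelled male arrays and -3.41 over the 6 labelled female arrays, a log2 difference of 3.25 (9.5-fold), and 6.55% of tested probes differed as far. Fosb differed by 2.43, with 11.8% of probes as far. Egr2 and Nr4a2 were also lower in labelled females, but their probes were well above background on only 1 and 0 of the 6 arrays there, so no size is given. The slides lay within 0.12 of each other for Nr4a1 and 0.29 for Ier2, with 85.3% and 65.6% of probes at least as far apart. Egr1 differed by 0.54, Jun by 0.35, Junb by 0.81 and Atf3 by 1.19. The tested probe of every member had its lower mean in labelled females. No test is given, since the slide, its scan and the sex label cannot be told apart.

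With slide means removed, 6 members (Fos, Fosb, Jun, Junb, Egr1 and Ier2) varied together, and the other 4 less so. Across the 14 arrays the 45 pairs had a median Pearson correlation of 0.415, from -0.736 to 0.926. Jun and Junb were the closest pair (r = 0.926), and Fos with Ier2 and Fosb with Egr1 followed at 0.90 each. Atf3 was closest to Fos (0.74) and Nr4a1 (0.69) and weakly correlated with Jun (0.22), Nr4a1 was closest to Atf3, Egr2 had no correlation above 0.35, and Nr4a2 was negatively correlated with all 9 others, most with Egr1 (-0.736). The pairs share arrays and their brightness, and no p is given. Without labelled male SI mouse 4 the median was 0.291, and Jun with Junb remained the closest pair at 0.916.

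**Figure D4:**
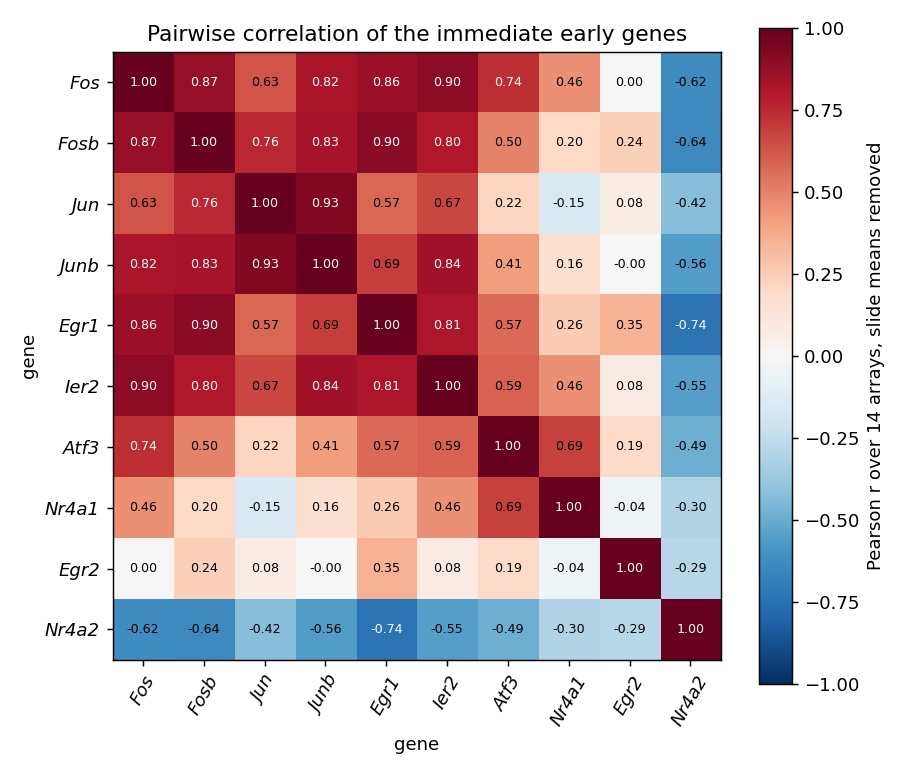
Pearson correlation of each pair of immediate early genes over 14 arrays after the mean of each slide was removed, on a colour scale from -1 (blue) to 1 (red). Fos, Fosb, Jun, Junb, Egr1 and Ier2 form a block of positive values, and the row of Nr4a2 is negative throughout.

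Over the whole array, the gene nearest to Junb was Dusp2 (r = 0.969 over 14 arrays), an inducible phosphatase that switches off MAP kinases, and Junb was itself the third nearest gene of Jun (0.926) after Zfp296 and Tmem184c. Nearest to Ier2 was H2-DMa (0.989), a chaperone of MHC class II loading. Nr4a1 was nearest to Degs1 (0.95), a desaturase of ceramide synthesis, Arhgap39 (0.949) and Mxd1 (0.939), a MAX partner that opposes MYC. The nearest genes were Myo9b for Fos (0.965), Socs5 for Fosb (0.968), Ppp1r16a for Egr1 (0.945), Fuca2 for Atf3 (0.948), Ctsk for Egr2 (0.885) and Hmga2 for Nr4a2 (0.976). No gene was among the 3 nearest of more than 1 member. These are the highest values among 11481 genes, on arrays that share their brightness, and no p is given. The probes of Egr2 and Nr4a2 used here were each well above background on only 7 of 14 arrays.

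Among the genes that act before the members, 15 of 15 kinases and factors upstream were tested. None fell over both slides, and the list's median was -0.14. Srf, Elk1, Elk3, Elk4 and Creb1 were among those that did not pass. Without labelled male SI mouse 4, 4 of these genes fell over both slides: Rps6ka1 (-0.76 ± 0.14) and Rps6ka3 (-0.45 ± 0.14), kinases that phosphorylate CREB, Mrtfa (-0.74 ± 0.18), a coactivator of SRF, and Srf itself (-0.61 ± 0.19). In labelled males 6 fell and 3 rose without that mouse, Elk1 among those that rose (0.84 ± 0.22). Of all tested probes in that fit, 6.03% were lower and 10% higher over both slides. In labelled males 17.1% were lower and 22.1% higher.

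Among the partners of AP-1, 0 of 9 tested genes passed over both slides (median -0.52), and Atf4, a factor of the integrated stress response, rose in labelled females (1.08 ± 0.27, adjusted p = 0.0416). There 763 of the 24013 tested probes rose. Without mouse 4, 3 partners fell over both slides: Jdp2 (-0.91 ± 0.18), a repressor of AP-1, Fosl2 (-0.92 ± 0.18), a FOS relative, and Batf (-0.85 ± 0.22), a lymphocyte partner of JUN. Of all tested probes, 6.03% were lower and 10% higher in that fit. In labelled males of the same fit 3 partners fell and 1 rose, Mafg (0.67 ± 0.215), with 17.1% of probes lower and 22.1% higher. Of 5 relatives of the EGR and NR4A factors, only Nab1 and Nab2, corepressors of EGR1 and EGR2, could be tested. Nab1 rose over both slides (0.91 ± 0.20, adjusted p = 0.011), as did 7.4% of all tested probes. Egr3, Egr4 and Nr4a3 were not above background on enough arrays.

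Feedback inhibitors are induced with the immediate early genes and end the response. Of 11 tested, 1 rose over both slides and in labelled females, Dusp10, a phosphatase of JNK and p38 (1.27 ± 0.31, adjusted p = 0.0179, and 1.97 ± 0.43, 0.0296). The other 10 were negative over both slides without passing, and the median of the list was -0.32. Of all tested probes, 7.4% rose over both slides, and 763 of 24013 rose in labelled females. Of 30 other primary response genes tested, 26 were negative and none passed over both slides (median -0.40, limma), on either slide or between slides.

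Without labelled male SI mouse 4, 8 of the 11 feedback inhibitors fell in labelled males and none rose, against 17.1% of all probes lower and 22.1% higher. They included Zfp36l2 (-1.03 ± 0.27) and Zfp36l1 (-0.80 ± 0.28), which destabilise mRNAs, Dusp6 (-0.85 ± 0.24), a MAP kinase phosphatase, Dusp2 (-1.23 ± 0.44), and the NF-kB inhibitors Tnfaip3 (-1.03 ± 0.33) and Nfkbia (-0.93 ± 0.31). Likewise 17 of the 30 other primary response genes fell and none rose. Among them were the chemokines Ccl3 (-2.26 ± 0.43) and Ccl4 (-2.90 ± 0.61), the kinase Plk3 (-1.66 ± 0.28), the antiproliferative Btg2 (-1.48 ± 0.27), the quiescence factor Klf2 (-1.49 ± 0.32) and the clock gene Per1 (-1.43 ± 0.31). In labelled females of that fit, 0 of 11 feedback inhibitors fell and 1 rose, Dusp10 (1.97 ± 0.34, limma adjusted p = 0.011). Of 30 other primary response genes, 2 fell and 0 rose there, with 2.48% of all probes lower and 5.48% higher. None of either list passed for the difference between slides, where 2.79% of probes did. These lists were chosen with earlier results known, and their counts are a description.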

How the data were processed

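RNA of blood cells was measured on 14 one-colour Agilent mouse arrays, 1 mouse each, and groups were taken from the labels. The deposited signals are fluorescence intensity values, background-subtracted with version 10.7.3.1 of the Feature Extraction software, per the file headers (the submitters' processing notes name version 9.1), and the authors' deposited value table is on a log2 scale, with its normalization not given in the sources used here. No spot was saturated. Control spots (all) and outlier spots (113 to 174 an array) were left out, and spots of 1 probe were averaged as log2 processed signal. Each array was scaled by its 75th percentile over the 14504 probes well above background on all arrays. The 24013 probes well above background on at least 6 arrays were tested. RefSeq's GRCm38.p6 gene table matched 26425 of 31063 RefSeq-type probes, and a gene is represented by its brightest tested probe.

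SS was compared with SI over both slides with slide as a term, and within each slide and between slides in a fit of 4 groups (limma 3.58.1, R 4.3.3), with Benjamini-Hochberg adjustment over all tested probes at 0.05. Relations to array brightness were tested with exact two-sided permutation (scipy 1.17.1). The members, gene lists and tests were chosen with earlier results of these data known. Other genes are named from those lists when they passed, at most 6 a list by lowest p, or as the 3 best correlated with a member. On simulated arrays, with 100 probes changed by each size, the fit called 30% of probes given a change of 1 (log2) over both slides. Within labelled males it called 15% and within labelled females 2%. With a change of 2 it called 81%, 61% and 43%. The simulated noise was independent between probes, while many real probes moved with array brightness, so recovery on the real arrays can differ. Alternatives were other scalings, background corrections, filters, weights, the deposited table and each array left out. One result of the upstream list is not reported here.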

Additional observations from a re-analysis of the deposited data

Results flagged for a closer look

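Of 30 group comparisons, 3 values of the members stood apart from their group, and chance flags about 1 group in 20. Egr2 was lowest in labelled male SI mouse 4, at -4.33 against -3.06 for the nearest mouse. Ier2 was highest in labelled male SS mouse 3, at -1.20 against -2.44 for the nearest. Nr4a1 was lowest in labelled male SS mouse 2, at 1.71 against 2.09 for the nearest. In each case the gap to the nearest mouse was larger than the usual 95% limit for the share of the range of the group of 4 (0.844, 0.921 and 0.84).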

How the results depend on the processing

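The call of Nr4a1 over both slides was the 1 count there; it was 0 with the percentile of all probes (adjusted p = 0.0578), the deposited table (0.0979) and no filter on dim probes (0.0899), and 0 to 1 with single arrays left out. Array weights gave 4 members over both slides, 8 in labelled males and 1 for the difference between slides. Of all 24013 tested probes, 10649, 14044 and 2409 passed in these fits. In labelled females 1 member passed when only probes above background on all arrays were tested (1058 of 14504 probes did). There 2 members passed with array brightness as a term (3235 of 24013 probes did). Leaving out single arrays gave 0 to 5 members in labelled males (0 to 9412 probes) and 0 to 1 in labelled females (45 to 1912 probes). The cause was not tested.

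Signs turned for members that had not passed. Over both slides, Fosb was 0.0111 with the median of probes above background, 0.00259 with quantile normalization and 0.0382 with brightness as a term, and Jun was -0.47 with array weights. With single arrays left out Fosb ran from -0.34 to 0.17, Jun from -0.0214 to 0.30, Junb from -0.34 to 0.0244 and Egr1 from -0.79 to 0.36. In labelled males Fos was 0.19 with brightness as a term. In labelled females Ier2 was 0.00294 with the percentile of all probes and Nr4a2 0.10 with quantile normalization; normexp gave -0.22 for Fos, -0.0703 for Fosb and -0.24 for Egr2; Fos was -0.076 with array weights and -0.93 with brightness as a term. There, with single arrays left out, Egr2 ran from -0.0742 to 1.21, Ier2 from -0.33 to 0.0134, Atf3 from -1.17 to 0.12 and Fos from -0.63 to 0.71.

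The count of all called probes also moved: over both slides 10649 passed with array weights, 4414 with brightness as a term, 3858 without labelled male SI mouse 4 and 1253 with normexp, against 1915. In labelled males 14044 passed with array weights and 9412 without that mouse, against 0. In labelled females between 45 and 1912 passed with single arrays left out, against 960, and 3235 with brightness as a term. The deposited table has 2 blank values for Egr2 and 3 for Nr4a2, which that fit drops. No paired analysis was possible because the groups share no replicate numbers. With 2 labelled female SI arrays, most changes of 1 on the log2 scale are missed there, and dim probes (Egr2, Nr4a2) carry little information on that slide.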
